A study of Mus musculus with 27 samples.

Results

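Synaptic vesicle release genes were taken as every entry of the deposited expression table whose gene symbol is that of a synaptotagmin (Syt), a synapsin (Syn1 to Syn3), Snap25 or Snap47, a VAMP, a syntaxin (Stx), a syntaxin binding protein (Stxbp), an SV2 protein, Rims, Unc13, a complexin (Cplx), Rab3, synaptophysin (Syp) or synaptoporin (Synpr). This rule uses names only and found 71 of 59489 entries, of which 23508 carry a symbol. The 71 entries hold 70 genes, because Rims1 has 2 entries that share 133285 bp of chromosome 1. They are 17 synaptotagmins, 15 syntaxins, 8 entries of Rims and Unc13, 7 VAMPs, 6 syntaxin binding proteins, 5 genes of the SV2 and synaptophysin families, 4 Rab3 genes, 4 complexins, 3 synapsins and 2 SNAP proteins. The entry of Vamp1 is merged with E130112N10Rik and that of Syt11 with 1500004A13Rik, so their values cover both names.

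The study measured polyadenylated RNA of wild-type mouse primary cortical cells, taken from embryos at day 16.5 and kept for 14 days in culture, in 27 libraries that form 9 groups of 3. In the first experiment every group received DRB, an inhibitor of transcription elongation (50 µM, 2 h), and the cells were unstimulated, treated with bicuculline (20 µM, 1 h), or treated with BDNF (50 ng/mL, 1 h). Bicuculline blocks GABA-A receptors and so raises the firing of cultured networks, while BDNF is a growth factor that acts through the receptor TrkB. In the second experiment every group received triptolide, an inhibitor of transcription initiation (1 µM, 3 h), and cells were unstimulated or treated with bicuculline (20 µM, 1 h), with RNA from whole cells, nuclei or cytosol. The unstimulated groups thus received an inhibitor too, no group without an inhibitor was analysed here, and the labels of the DRB libraries name no RNA fraction. The cultures hold several cell types, and the labels do not say how many animals a culture pools.

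At a nerve terminal, neurotransmitter is held in vesicles that fuse with the plasma membrane when calcium enters. Fusion is driven by SNARE proteins, with VAMP2 on the vesicle and syntaxins and SNAP-25 on the plasma membrane, and syntaxin binding proteins guide their assembly. Synaptotagmins sense calcium, complexins bind the assembled SNAREs, Rims and Munc13 proteins (Unc13 genes) prepare vesicles at the active zone, Rab3 proteins tie vesicles to Rims, and synapsins hold the reserve pool. SV2 proteins and synaptophysin are membrane proteins of the vesicle itself. Several other syntaxins, VAMPs and syntaxin binding proteins serve fusion elsewhere in the cell, such as at the Golgi and endosomes.

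Levels are FPKM (fragments per kilobase of transcript, scaled to the mapped fragments of the library), as the authors deposited them. The depth, estimated from steps between low values, was 83.5 to 148.1 M fragments per DRB library and 67.6 to 89.5 M fragments per triptolide library, so 10 fragments on a transcript of 2 kb make 0.0338 to 0.0739 FPKM. Each library had 12056 to 13911 entries at 1 FPKM or more. The labelled cell type was checked with marker lists. All 7 neuronal markers (a list that includes Snap25) and all 8 astrocyte markers had means of at least 1 FPKM in all 9 groups. Of 7 microglial markers 3 reached that mean in triptolide groups and 1 in DRB groups. Their sums were 2.4 to 9.8 FPKM, with P2ry12 and Tmem119 under 0.1. Of 7 vascular and mesenchymal markers 1 to 2 reached it, with sums of 1.99 to 8.43 FPKM and Cldn5 and Flt1 under 0.1. Of 8 oligodendrocyte lineage markers 6 to 8 had means of at least 1 FPKM, with sums of 64.1 to 110 FPKM in triptolide libraries and 172 to 231 FPKM in DRB libraries. Of 6 activity genes, 6 rose under DRB with either stimulus (median log2 change 3.84 with bicuculline and 3.79 with BDNF). All 5 of 5 nuclear long noncoding RNAs (Meg3, Miat, Rian, Mirg and Snhg11) were higher in nucleus than in cytosol. Some libraries stood apart in the summed level of these 5 RNAs. Nuclear bicuculline library 2 was at 2056 FPKM, against 1115 and 1102 FPKM in libraries 1 and 3 of its group and 1348 to 1423 FPKM in unstimulated nuclei. Where a compared group holds this library, the unblocked counts of called members are given with and without it. It also enters the shared estimate of the spread in the other triptolide comparisons. Their counts are given with it only. Most values of single members, the marker lists and the gene lists outside the rule are given with it only. Under DRB, library 2 was the highest in all 3 groups, at 667.9 FPKM unstimulated, 656.0 FPKM after bicuculline and 631.6 FPKM after BDNF. The other DRB libraries were at 313.5 to 438.1 FPKM. No member was called under DRB with all libraries, or without any 1 library of the groups compared.

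The core fusion machinery was among the most abundant of these genes. In unstimulated cells under DRB, the vesicle SNARE Vamp2 was at 669, 612 and 644 FPKM in libraries 1 to 3, and the vesicle membrane protein Syp at 666, 610 and 626 FPKM. These values overlapped. Snap25, the plasma membrane SNARE, was at 578, 515 and 466 FPKM, below every library of Syp and above every library of Syt1, the calcium sensor of fast release, at 435, 448 and 413 FPKM. Rab3a (346 ± 12 FPKM, SD, n = 3) lay below Syt1 in every library. Further down, 4 genes overlapped with their neighbours in the order, namely Syn2 (231 ± 14.8), Cplx1 (226 ± 20.6), Snap47 (218 ± 16.2) and Cplx2 (193 ± 10.9). A further overlapping set was Stx7 (135), Sv2a (131 ± 6.54), Syt4 (125 ± 24.6) and Syn1 (113 ± 6.10 FPKM); Stx7, an endosomal syntaxin, was named with its values known. Of the 71 entries, 15 had a mean of at least 100 FPKM, 46 of at least 10 FPKM and 8 of under 1 FPKM, and together they made 5692 FPKM, or 1.42% of all FPKM.

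Within each family 1 or a few members carried most of the level, and paralogues spanned a wide range. SV2 and synaptophysin genes summed to 913 FPKM (16.0% of the 71 entries' FPKM), synaptotagmins to 908 FPKM (15.9%), the 2 SNAP genes to 737 FPKM (13.0%), VAMPs to 710 FPKM (12.5%) and syntaxins to 589 FPKM (10.3%). The Rims and Unc13 entries, which build the release site, summed to 180 FPKM (3.17%), the lowest of the 10 families in these cells. Unc13a was at 67.8 ± 5.06 FPKM and Unc13b at 5.10 FPKM, while Unc13c was at 0.0383, 0.0543 and 0.0183 FPKM. Sv2a and Sv2b (75.5 ± 9.17 FPKM) lay well above Sv2c (5.63 ± 2.07 FPKM). Syt2, a calcium sensor of fast release that is known from hindbrain and from some inhibitory neurons, was at 4.90, 8.59 and 1.37 FPKM. Its libraries differed several-fold, and they kept this order with bicuculline (3.93, 8.50 and 0.965 FPKM) and with BDNF (5.07, 7.66 and 1.84 FPKM). Cplx3, known from retina, was at 0.802 ± 0.265 FPKM and Cplx4 at 0.0171 FPKM. The other entries under 1 FPKM were Vamp5, Stx11, Syt15, Syt8 and Stx19, the last listed at 0 in all 3 libraries, and these were named after their values were seen.

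**Figure D1:**
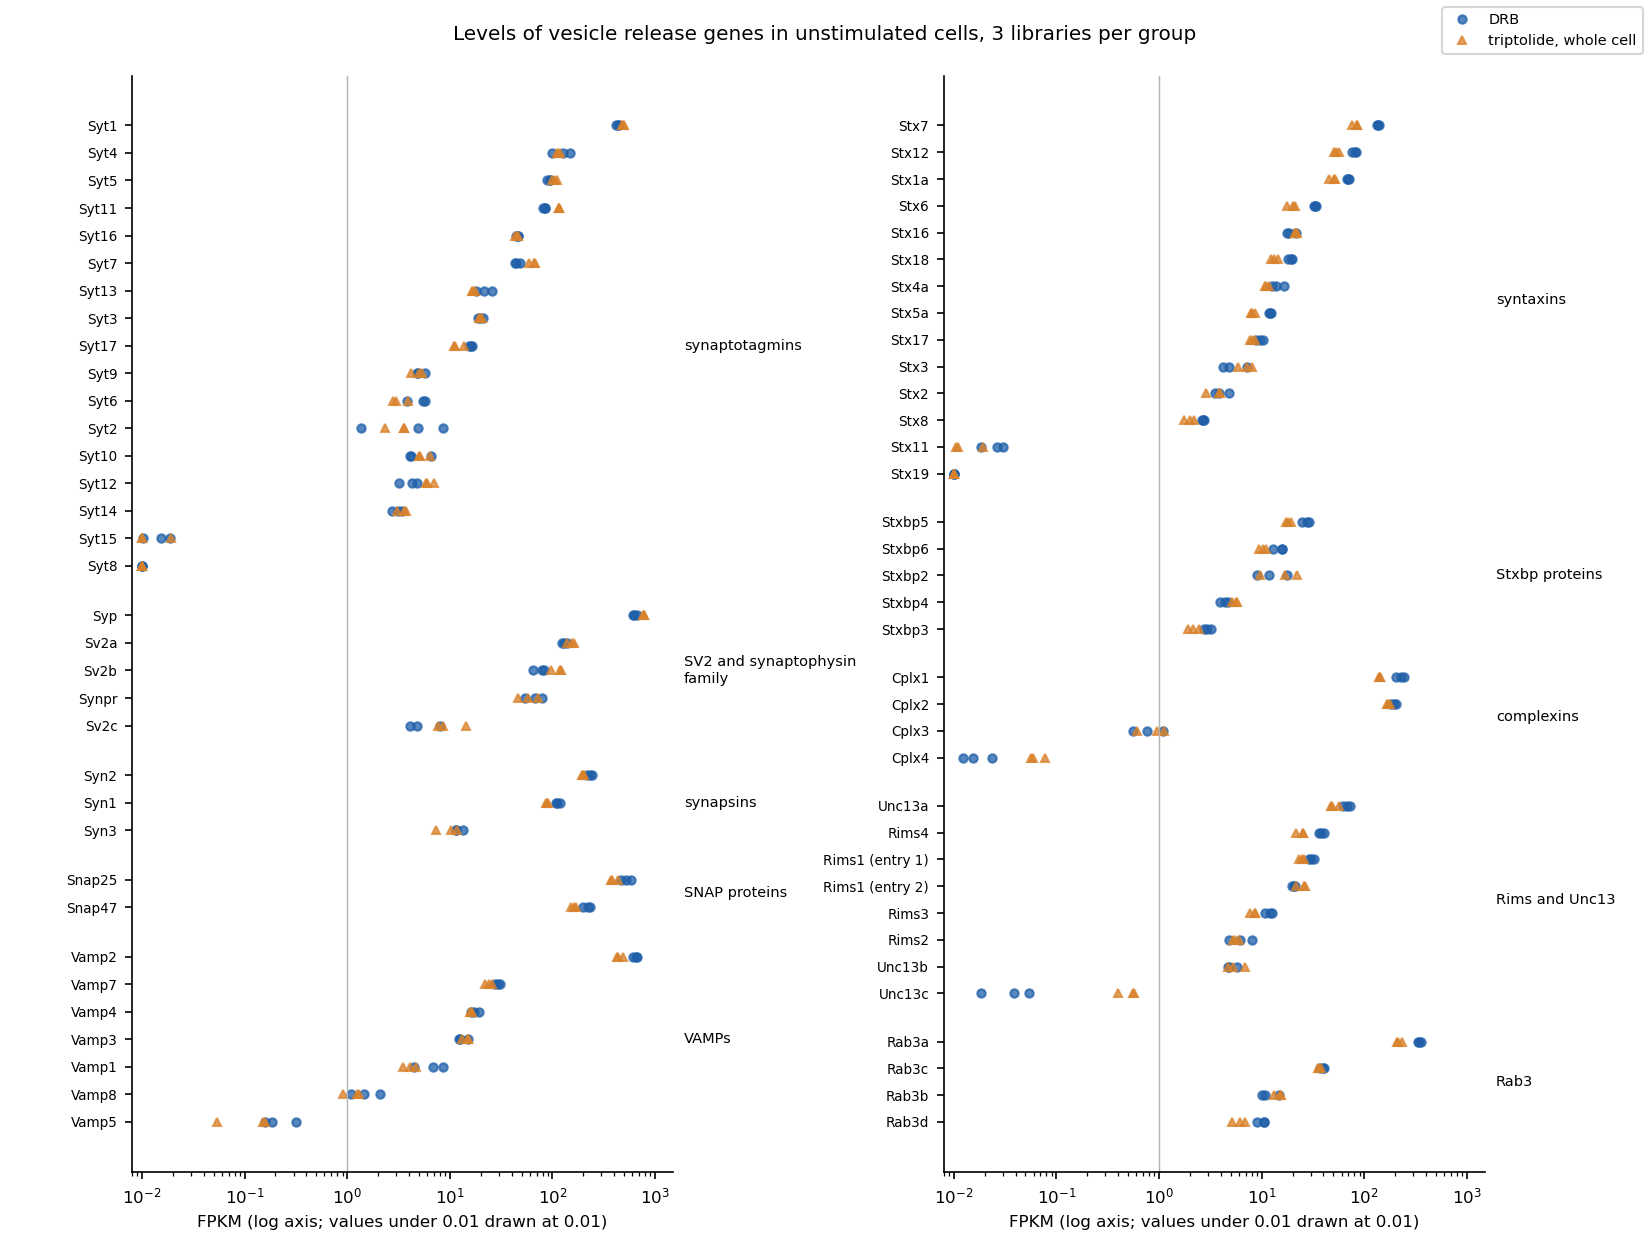
FPKM (log axis) of 69 of the 71 entries in the 3 unstimulated DRB libraries (circles) and the 3 unstimulated whole-cell triptolide libraries (triangles), by family, with a line at 1 FPKM. Vamp2 and Syp lead under DRB, at means of 642 and 634 FPKM, and Syp leads under triptolide at 777 FPKM.

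In whole cells under triptolide the same families led, with 16 entries at 100 FPKM or more, 8 under 1 FPKM and a sum of 4954 FPKM (1.24% of all FPKM). Syp had the highest mean (777 FPKM), then Syt1 (486 FPKM) and Vamp2 (451 FPKM). Unc13c was at 0.569, 0.552 and 0.399 FPKM there, above all 3 unstimulated DRB libraries. The experiments used different inhibitors, times and cultures, which cannot be told apart, so their levels were not tested against each other. After a filter for at least 1 FPKM in at least 3 libraries of an experiment, 63 of the 71 entries were tested under DRB (all but the 8 under 1 FPKM) and 64 under triptolide, where Cplx3 passed too.

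Of the 71 entries, 45 overlap another entry and 11 overlap one with a mean of at least 1 FPKM. Rab3a lies within Pik3r2 (52.8 FPKM) over 4008 bp, Syn1 shares 9 bp with Araf, and Sv2c holds small unnamed models at 9.06 to 47.8 FPKM. Whether counting used strand is not given in the sources used here, so reads of such pairs may not be told apart. By the deposited coordinates (mm10), Syp spans chrX:7638580-7653256, Sv2a chr3:96181184-96195183, Syt1 chr10:108497651-109010975 and Stxbp2 chr8:3631109-3643998, and neither Sv2a nor Stxbp2 overlaps another entry.

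Promoter stretches are shown for Syp, Sv2a and Syt1, abundant vesicle proteins that shared a pattern in nuclear RNA described further on. Each runs 5′ to 3′ from 250 bases before to 50 bases after the annotated start, from RefSeq (GRCm38.p6), at chrX:7638330-7638629 (plus strand), chr3:96180977-96181276 (plus strand) and chr10:109010926-109011225 (minus strand). Capitals mark GGGCGG, the GC box, on either strand.
Syp: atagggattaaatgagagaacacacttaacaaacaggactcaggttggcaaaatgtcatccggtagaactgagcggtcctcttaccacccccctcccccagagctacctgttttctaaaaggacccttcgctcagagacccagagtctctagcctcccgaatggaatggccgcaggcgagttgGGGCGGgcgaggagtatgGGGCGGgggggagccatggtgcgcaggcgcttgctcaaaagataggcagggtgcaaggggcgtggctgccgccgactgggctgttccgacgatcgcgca
Sv2a: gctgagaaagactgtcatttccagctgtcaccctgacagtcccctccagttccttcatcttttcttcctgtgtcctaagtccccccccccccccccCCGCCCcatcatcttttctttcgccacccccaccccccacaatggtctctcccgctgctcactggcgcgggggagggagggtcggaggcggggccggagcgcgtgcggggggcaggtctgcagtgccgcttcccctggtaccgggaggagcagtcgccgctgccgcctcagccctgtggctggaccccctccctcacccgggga
Syt1: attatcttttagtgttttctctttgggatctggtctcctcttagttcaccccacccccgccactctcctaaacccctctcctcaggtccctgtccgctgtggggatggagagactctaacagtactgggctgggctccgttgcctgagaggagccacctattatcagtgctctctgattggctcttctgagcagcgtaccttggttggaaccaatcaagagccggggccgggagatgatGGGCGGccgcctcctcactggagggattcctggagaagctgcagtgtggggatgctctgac
The Syp stretch holds 2 GC boxes and 59.0% G and C, that of Sv2a 1 and 68.0%, and that of Syt1 1 and 56.7%. RefSeq stretches matched 54 of the 70 symbols. GGGCGG was found in 42 of these (77.8%), against 35.9% of 27025 stretches of the same length over all genes, and TGACG, the core of the cyclic AMP response element, in 16 (29.6% against 21%) and in none of the 3 shown. The full element TGACGTCA, which contains TGACG, was in 2, Stxbp3 and Syn1 (3.7% against 1.9%), and TATAAA in 3, Rab3b, Stx3 and Sv2b (5.6% against 14.2%). Stxbp3 and Rab3b were named with these matches known. GCGTGGGCG, bound by Egr factors, was in 1, Unc13a (1.9% against 0.6%). All motifs were searched on both strands. The shares are set against all genes, and no set matched to the members for gene type or level is given here. A transcription inhibitor was present in every group, how far it blocked transcription was not measured, and none of the values here measures the activity of these promoters.

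Under DRB, 1 h of bicuculline or BDNF left no vesicle release gene past the threshold. Calls rest on limma, fitted to log2(FPKM + 0.5), with p-values adjusted by Benjamini-Hochberg over all entries tested and a threshold of 0.05; this scale understates changes of low genes. The p-values measure the spread between these libraries. A second fit added replicate number as a block, because libraries of the same number deviated together. Bicuculline gave 0 calls of 63 with either fit, at 1 entry with an unadjusted p under 0.05 without the block and 4 with it, where 0.308% of all entries were called without the block and 0.571% with it. BDNF gave 0 of 63 with either fit (1 and 5 at an unadjusted p under 0.05; 0.638% and 1.49% of all entries). Between BDNF and bicuculline it was 0 of 63 as well (0 and 4 at an unadjusted p under 0.05; 0.128% and 0.54% of all entries). In bulk samples, fewer cells of a type and less RNA per cell cannot be told apart, here and below.

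The libraries of single members show how far groups overlapped. Vamp2 was at 669, 612 and 644 FPKM in unstimulated cells, 663, 614 and 701 after bicuculline and 670, 619 and 640 after BDNF, in libraries 1 to 3. Snap25 followed with 578, 515 and 466, then 546, 488 and 462, then 546, 522 and 446 FPKM. The 3 groups overlapped for both SNAREs, and the libraries of number 1 had the highest Snap25 in each group. Syt4, a synaptotagmin known for its induction by activity, was at 98.9, 148 and 128 FPKM unstimulated, 109, 171 and 132 after bicuculline and 106, 150 and 139 after BDNF. It too overlapped between groups, with number 2 highest in each. Log2 changes of the 63 members ran from -0.22 to 0.16 with bicuculline (median -0.05, against 0.00 over all entries; 49 of 63 negative) and from -0.21 to 0.20 with BDNF (median -0.01, against 0.00).

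The member with an unadjusted p under 0.05 for either stimulus was Syt17, which has C2 domains like the other synaptotagmins and was named after its values were seen. It was at 16.3, 16.2 and 15.3 FPKM unstimulated, 14.1, 13.3 and 14.6 after bicuculline and 14.7, 14.0 and 13.7 after BDNF. Both stimulated groups lay below every unstimulated library, and both share those 3 controls. The log2 changes were -0.18 ± 0.06 (SE; limma adjusted p = 1.0, and 0.412 with the block) and -0.17 ± 0.06 (limma adjusted p = 0.931, and 0.311 with the block). Unc13a, which primes vesicles for fusion, had the largest difference between the stimuli (0.36 ± 0.19, limma adjusted p = 1.0). It was at 63.1, 75.9 and 40.5 FPKM after bicuculline and 69.8, 79.9 and 74.5 after BDNF, with the low value in bicuculline library 3.

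In whole cells under triptolide, bicuculline again gave 0 calls of 64, without or with the block (6 and 15 at an unadjusted p under 0.05; 0.0352% and 4.23% of all entries were called). Log2 changes ran from -0.25 to 0.35 with a median of 0.05, against 0.03 over all entries; 47 of 64 were positive, and 35 with median-ratio scaling. Among the 6 entries were Unc13a (0.26), Syn1 (0.16), Stx6 (0.16) and Stxbp4 (-0.18). Unc13a came nearest the threshold (limma adjusted p = 0.425, and 0.0547 with the block). It was at 48.7, 56.1 and 47.7 FPKM unstimulated and 53.6, 66.9 and 62.8 after bicuculline, higher within each replicate number although the groups overlapped. Summed levels of the 6 activity genes were 10.5 to 16.0 FPKM in these unstimulated libraries and 16.8 to 26.2 FPKM after bicuculline, against 472 to 571 FPKM after bicuculline under DRB.

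**Figure D2:**
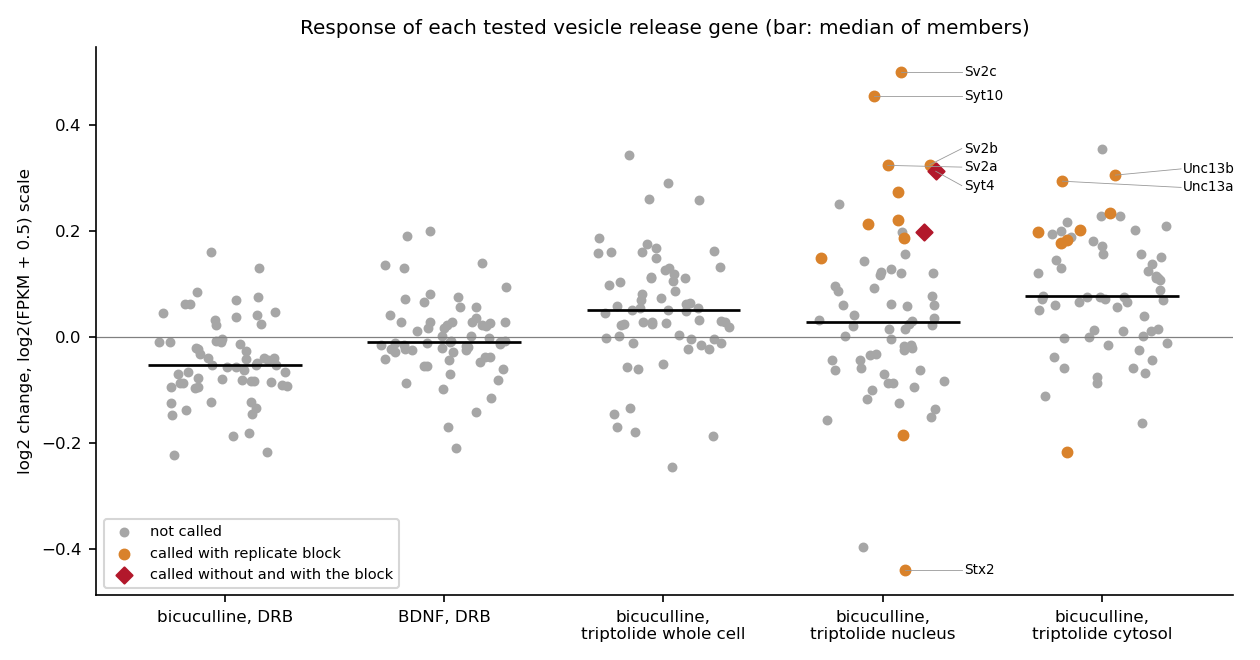
Log2 change of each tested entry in 5 stimulus comparisons (bar: median of the members), grey where not called, orange where called with the replicate block and red where called without and with it. The DRB and whole-cell columns hold no call, Syt4 and Syt1 are the red points of the nucleus, and the orange points of nucleus and cytosol are mostly above 0.

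Nuclear and cytosolic RNA divided the families. In unstimulated cells under triptolide, 18 of 64 entries were higher in the nucleus and 26 lower, where 39.0% of all entries were higher and 28.0% lower, and the members' median log2 difference was -0.15, against 0.06 over all entries. With the block the counts were 19 and 30, against 6079 higher and 4705 lower among all 14205 entries tested. Vesicle membrane genes, both SNAP genes and several synaptotagmins were lower in the nucleus. Most Rims and Unc13 entries and most syntaxin binding proteins were higher there, and syntaxins and VAMPs went both ways. Groups did not overlap for any of the 44 called entries, which the call itself favours. The share without overlap among all called entries is not given here. FPKM is relative within each fraction, so a higher nuclear value means a larger share of nuclear RNA, and the split over all entries depended on scaling (5540 higher and 3971 lower as deposited, 5075 and 4922 with median-ratio scaling, 3943 and 5837 with quantile normalization). The members' counts were 18 and 32, and 17 and 30, in those 2 scalings.

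Vesicle membrane genes and several synaptotagmins were lower in nuclei than in cytosol. Of 5 SV2 and synaptophysin genes 4 were lower in the nucleus and 0 higher (median -0.72), with the fifth, Sv2c, called with the block (-0.67, limma adjusted p = 0.0626 without it and 1.63e-07 with it). Synpr, 1 of the 4, lost its call in 4 of 6 fits that each left out 1 library (highest limma adjusted p = 0.151). Syp was at 516, 546 and 528 FPKM in nuclei and 991, 977 and 1079 FPKM in cytosol. Sv2a, which is the binding site of the drug levetiracetam, was at 91.4, 107 and 105 FPKM in nuclei and 181, 201 and 225 in cytosol. Every nuclear library of both genes lay below every cytosolic one, with log2 differences of -0.94 ± 0.07 for Syp and -1.0 ± 0.08 for Sv2a. Of 15 synaptotagmins 7 were lower and 2 higher in the nucleus (median -0.41). Syt1 was at 326 FPKM in nuclei and 625 in cytosol (-0.94 ± 0.05), and Syt4 at 85.5 and 138 FPKM (-0.69 ± 0.06). Syt2 had the largest fall of all members, from 3.61, 5.62 and 4.91 FPKM in cytosol to 1.40, 1.35 and 1.64 in nuclei (2.62-fold lower with 0.5 FPKM added, -1.39 ± 0.17). Syt7, a slow high-affinity calcium sensor, was instead higher in nuclei, at 75.7 against 58.9 FPKM (0.36 ± 0.08).

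SNAREs and their partners went both ways. Both SNAP genes were lower in nuclei, Snap25 at 280, 258 and 282 FPKM against 494, 433 and 436 FPKM in cytosol (-0.73 ± 0.11) and Snap47 by a log2 difference of -0.54. So were Cplx1 (-0.60), Syn1 (-0.58), Rab3a (-0.56), Syn2 (-0.28) and Stx6 (-0.25). Vamp2 (-0.13), Stx1a (-0.01) and Cplx2 (-0.04) were not called in unstimulated cells. Vamp2 was lower in nuclei after bicuculline (-0.29, limma adjusted p = 0.00578).

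Rims and Unc13 genes, which prepare vesicles, leaned to the nuclear side. All 7 tested Rims and Unc13 entries had positive differences (median 0.43), 5 called higher and 0 lower. Unc13b was at 8.26, 9.72 and 8.20 FPKM in nuclei and 2.55, 3.01 and 2.57 in cytosol (1.52 ± 0.16), Unc13a at 56.4 against 41.9 FPKM (0.43 ± 0.12), and the Rims1 entries differed by 0.49 and 0.52. Rims2 (0.22) was called with the block (limma adjusted p = 0.0114) and was at -0.053 with quantile normalization. Of the 6 syntaxin binding proteins 4 were higher and 1 lower in nuclei, and the widest difference of all members was that of Stxbp2, which codes for Munc18-2, a partner of syntaxins in secretory cells. Stxbp2 was at 24.1, 30.3 and 27.2 FPKM in nuclei and 3.5, 3.68 and 3.4 in cytosol, 6.85-fold higher with 0.5 FPKM added (2.78 ± 0.32, limma adjusted p = 2.43e-06). No library overlapped. Stxbp4 (1.47 ± 0.08) followed. Among 13 syntaxins 6 were higher and 5 lower: Stx3, a plasma membrane syntaxin, was at 10.8, 11.5 and 12.8 FPKM in nuclei against 3.05, 3.12 and 2.80 in cytosol (1.80 ± 0.14), and Stx16 (1.09 ± 0.06), Stx17 (1.01 ± 0.12), Stx2 (0.97) and Stx4a (0.35) were higher too. Stx7 (-0.50) and Stx12 (-0.45), syntaxins of endosomes, were lower in nuclei. Of 6 VAMPs 1 was higher and 2 were lower, with Vamp3 at 0.64 and Vamp7 at -0.51. Vamp4, also lower, lost its call in 4 of 6 fits that each left out 1 library (highest limma adjusted p = 0.160). Stx12, Vamp3 and Vamp7 were named with their values known.

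After bicuculline the division was alike, with 14 entries higher and 28 lower in nuclei (31.3% and 31.9% of all entries; median -0.14 against -0.04). With the block 16 were higher and 32 lower, against 4997 and 5510 among all 14205 entries tested. Groups overlapped for 1 of the 42, Sv2b, with the share among all called entries again not given. Without nuclear library 2 the unblocked counts were 13 and 25, with the share of all entries in that refit not given here. Sv2b (limma adjusted p = 0.0958) and Syt7 (limma adjusted p = 0.0697) were among those no longer called. This loss was not confined to library 2. Over 6 fits that each left out 1 library, Sv2b lost its call in 4 (highest limma adjusted p = 0.175) and Syt7 in 2. The widest differences were again those of Stxbp2 (2.4, and 1.98 without nuclear library 2, where it was at 48.2 FPKM against 17.6 and 22.2 FPKM in libraries 1 and 3), Stx3 (1.22), Unc13b (1.15), Stxbp4 (1.09) and Syt2 (-1.37). Called with the block alone were Synpr (limma adjusted p = 7.42e-06), Vamp1 (0.0158), Rims3 (0.0167) and Rab3c (0.034), among others. With quantile normalization Rab3c moved from -0.12 to 0.015.

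**Figure D3:**
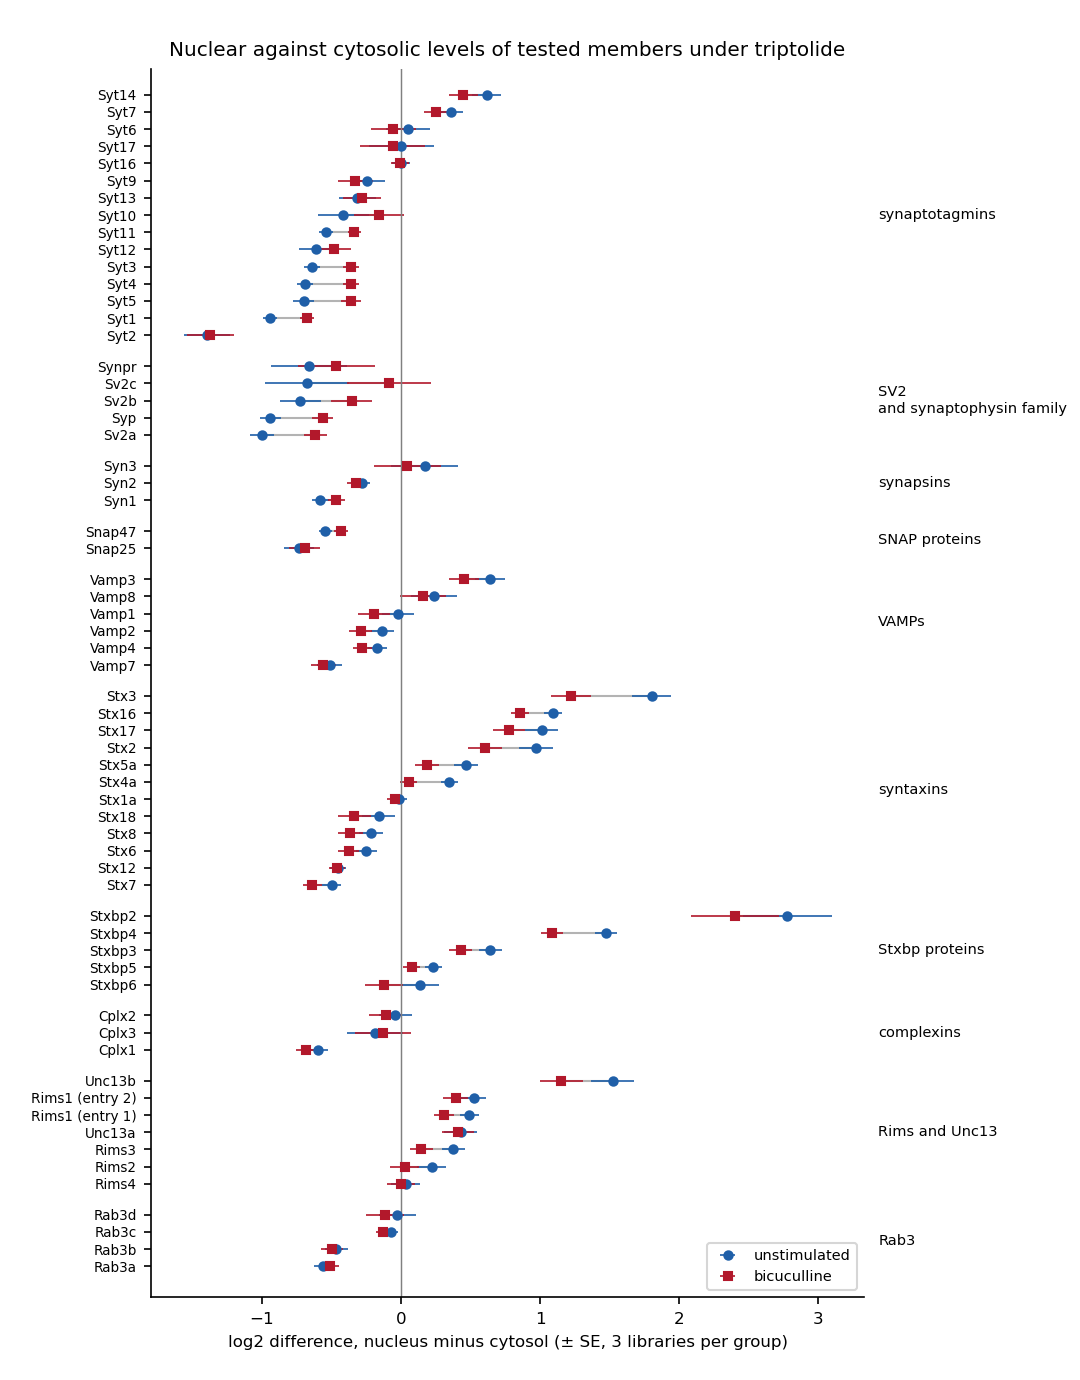
Log2 difference of nucleus minus cytosol (± SE, 3 libraries per group) of 62 of the 64 tested entries under triptolide, by family, in unstimulated cells (circles) and after bicuculline (squares). SV2, synaptophysin and most synaptotagmin points lie left of 0 and Rims, Unc13 and Stxbp points mostly right of it, with Stxbp2 farthest right at 2.78 unstimulated.

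In nuclei, RNAs of 2 synaptotagmins rose with bicuculline, and with the block those of vesicle membrane proteins too. Syt4 rose from 86.9, 89.6 and 80.0 FPKM to 111, 104 and 104 FPKM, and Syt1 from 316, 342 and 319 FPKM to 374, 363 and 385 FPKM. For both, every bicuculline library was above every unstimulated one. The log2 changes were 0.31 ± 0.06 for Syt4 (limma adjusted p = 0.0182) and 0.20 ± 0.05 for Syt1 (limma adjusted p = 0.0441), and these were the 2 entries of 64 called without the block (14 at an unadjusted p under 0.05; 0.986% of all entries were called higher and 0.824% lower). Without 1 library in turn, Syt4 lost its call in 3 of 6 fits (highest limma adjusted p = 0.0710) and Syt1 in 4 of 6 (highest limma adjusted p = 0.183). The count of calls was 0 without unstimulated nuclear library 1 or 3 or bicuculline nuclear library 1, and 1 without bicuculline nuclear library 3. Shares of all entries called are not given for these fits.

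Without bicuculline nuclear library 2, whose long noncoding RNA sum was highest, the same fit called 9 entries, 7 higher and 2 lower. The share of all entries called in this refit is not given here, so the count cannot be set against the whole table. Among them were Syp (0.31, limma adjusted p = 0.0165), Sv2a (0.36, limma adjusted p = 0.0457), Syn1 (0.25), Snap47 (0.19) and Stx2 (-0.54). Syt4 (0.33) and Syt1 (0.22) were also called there.

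With replicate number as a block, 11 of 64 entries rose in nuclei and 2 fell, where 7.72% of all entries rose and 5.39% fell. Of the 5 SV2 and synaptophysin genes 4 rose, as did 4 of 15 synaptotagmins and 1 each of the synapsins, SNAP genes and Rims and Unc13 entries. Sv2c changed most, from 5.48, 5.68 and 9.87 FPKM to 8.98, 8.37 and 12.4 FPKM (0.50 ± 0.07, limma adjusted p = 4.92e-04). Sv2a rose from 91.4, 107 and 105 to 127, 120 and 133 FPKM (0.32 ± 0.05, limma adjusted p = 0.00144), and Sv2b from 68.4, 95.2 and 79.4 to 89.5, 99.96 and 114 FPKM (0.33 ± 0.07, limma adjusted p = 0.00528). Each of the 3 SV2 genes was higher in all 3 replicate numbers, while the groups overlapped for Sv2b and Sv2c. Syp went from 516, 546 and 528 to 653, 534 and 664 FPKM (0.21 ± 0.06, limma adjusted p = 0.0232), higher in 2 of 3 numbers and lower in number 2.

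The other rises with the block were those of Syt10 (0.46), a calcium sensor known from secretion of IGF-1, Unc13a (0.28), Syt3 (0.22), a synaptotagmin with a role in receptor recycling, Syn1 (0.19) and Snap47 (0.15). Syt3 was named with its values known. Stx2 and Stx4a, syntaxins of the plasma membrane outside the terminal, fell: Stx2 from 4.88, 4.83 and 6.15 to 3.37, 4.33 and 3.58 FPKM (-0.44 ± 0.11) and Stx4a from 12.9, 12.4 and 13.0 to 10.9, 11.9 and 10.8 FPKM (-0.18 ± 0.06). Both groups were apart in both genes. Leaving out a whole replicate number from the blocked fit gave 1 call without number 1 (Sv2c), 13 without number 2 (10 of the 13 among them) and 5 without number 3 (Sv2a, Sv2c, Syt10, Syt3 and Syt4). For these refits the share of all entries called is not given here, so the counts cannot be set against the whole table. Vamps, complexins, Rab3 genes and syntaxin binding proteins had 0 calls in nuclei with either the unblocked or the blocked fit of all libraries.

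Cell type markers were read in the same nuclear libraries. The 6 inhibitory neuron markers summed to 105 to 131 FPKM in unstimulated nuclei and 128 to 161 FPKM after bicuculline (4 of 6 at 1 FPKM or more; median log2 change 0.26 over 5 tested), and the 6 excitatory markers to 705 to 811 and 688 to 897 FPKM (median 0.26). The 8 astrocyte markers summed to 713 to 853 and 648 to 775 FPKM (median -0.17). In limma 0 of these were called without the block, while with it 3 of 5 inhibitory and 4 of 6 excitatory markers rose and 1 of 8 astrocyte markers fell. With the block 7.72% of all entries rose in nuclei and 5.39% fell. Slc32a1 of the inhibitory list and Slc17a6 and Slc17a7 of the excitatory list are also in the vesicle filling list read further on. Of the 7 general neuronal markers 0 were called with either fit (median 0.11). The part of these differences in the nuclear response was not tested.

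In cytosol, bicuculline gave 0 calls of 64 without the block (13 at an unadjusted p under 0.05; 3.27% of all entries were called). With the block 7 rose and 1 fell, against 14.5% and 0.795% of all entries. The share that rose lies below that of all entries. Among the 7 were Unc13b (0.31 ± 0.08), Unc13a (0.29 ± 0.07), Stxbp4 (0.23), the longer of the Rims1 entries (0.20), Rims3 (0.18) and Stxbp5 (0.18), which codes for tomosyn, an inhibitor of SNARE assembly. Unc13a went from 36.2, 43.3 and 46.1 to 46.7, 56.5 and 51.0 FPKM, with every bicuculline library above every unstimulated one. Syt5 fell from 133, 132 and 127 to 121, 111 and 105 FPKM (-0.22 ± 0.05, limma adjusted p = 0.00853), and its groups were apart. Of the 8 blocked calls, 0 were left without number 1, 3 without number 2 (Rims3, Stxbp5 and Unc13b) and 1 without number 3 (Unc13a). Again the share of all entries called in these refits is not given here.

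These cytosolic rises depended on scaling. The median change was 0.08 over all entries and 0.08 over the members, and -0.01 for each with median-ratio scaling. In the blocked fit with that scaling, 0 members rose and 5 fell (3.37% and 4.19% of all entries), namely Syt5, Syt11, Syp, Syt1 and Syt3 (limma adjusted p = 0.0033, 0.01, 0.0121, 0.0206 and 0.036). The 5 nuclear long noncoding RNAs also had a positive median in cytosol (0.21, 0 called), with sums of 218 to 249 FPKM unstimulated and 237 to 291 FPKM after bicuculline, and their part in the result was not tested.

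In the blocked fit, the bicuculline response differed between nucleus and cytosol for RNAs of several vesicle proteins. Without the block 0 of 64 differences were called (12 at an unadjusted p under 0.05; 0.556% of all entries). With the block 9 members had a higher response in nuclei and 2 a lower one, where 2.84% of all entries were higher and 6.92% lower. Of the 9, 4 were SV2 and synaptophysin genes (of 5) and 5 were synaptotagmins (of 15), and 0 came from the other 8 families. The differences were 0.59 ± 0.10 for Sv2c (limma adjusted p = 0.00378), 0.38 ± 0.07 for Sv2a (limma adjusted p = 0.00828), 0.38 ± 0.08 for Syp (limma adjusted p = 0.0130) and 0.37 ± 0.09 for Sv2b (limma adjusted p = 0.0256). Among synaptotagmins they were 0.34 for Syt5, 0.33 for Syt4, 0.28 for Syt3, 0.27 for Syt1 and 0.21 for Syt11. Stxbp4 (-0.39 ± 0.11) and Stx4a (-0.29 ± 0.08) were lower. The gap between nucleus and cytosol thus narrowed for Syp and Sv2a, which were lower in nuclei, and for Stxbp4, which was higher there. It was also narrower after bicuculline for Stxbp2, Stx3 and Unc13b, and wider for Cplx1, Stx6, Stx7 and Vamp2, though these were not called for the difference. All 11 called members had the same sign in 3 of 3 replicate numbers, which a call in the blocked fit itself favours. Without the block their limma adjusted p ran from 0.0855 to 0.519.

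The cytosolic values of these genes show the other side of the difference. Syp was at 991, 977 and 1079 FPKM unstimulated and 920, 855 and 947 after bicuculline, so every bicuculline library lay below every unstimulated one. Syt1 was at 602, 637 and 636 and then 579, 588 and 622 FPKM, and Syt4 at 144, 141 and 129 and then 141, 131 and 138 FPKM. The groups overlapped for Syt1 and Syt4. Syt11, which lacks calcium binding, was at 138, 140 and 140 FPKM and then 130, 131 and 125 FPKM in cytosol, apart from each other, and at 95.1, 98.9 and 93.3 and then 109, 98.5 and 99.1 FPKM in nuclei, where they overlapped. In whole cells Syt4 was at 118, 113 and 111 FPKM unstimulated and 127, 119 and 124 after bicuculline, and Syt1 at 472, 482 and 502 and then 490, 487 and 503 FPKM.

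**Figure D4:**
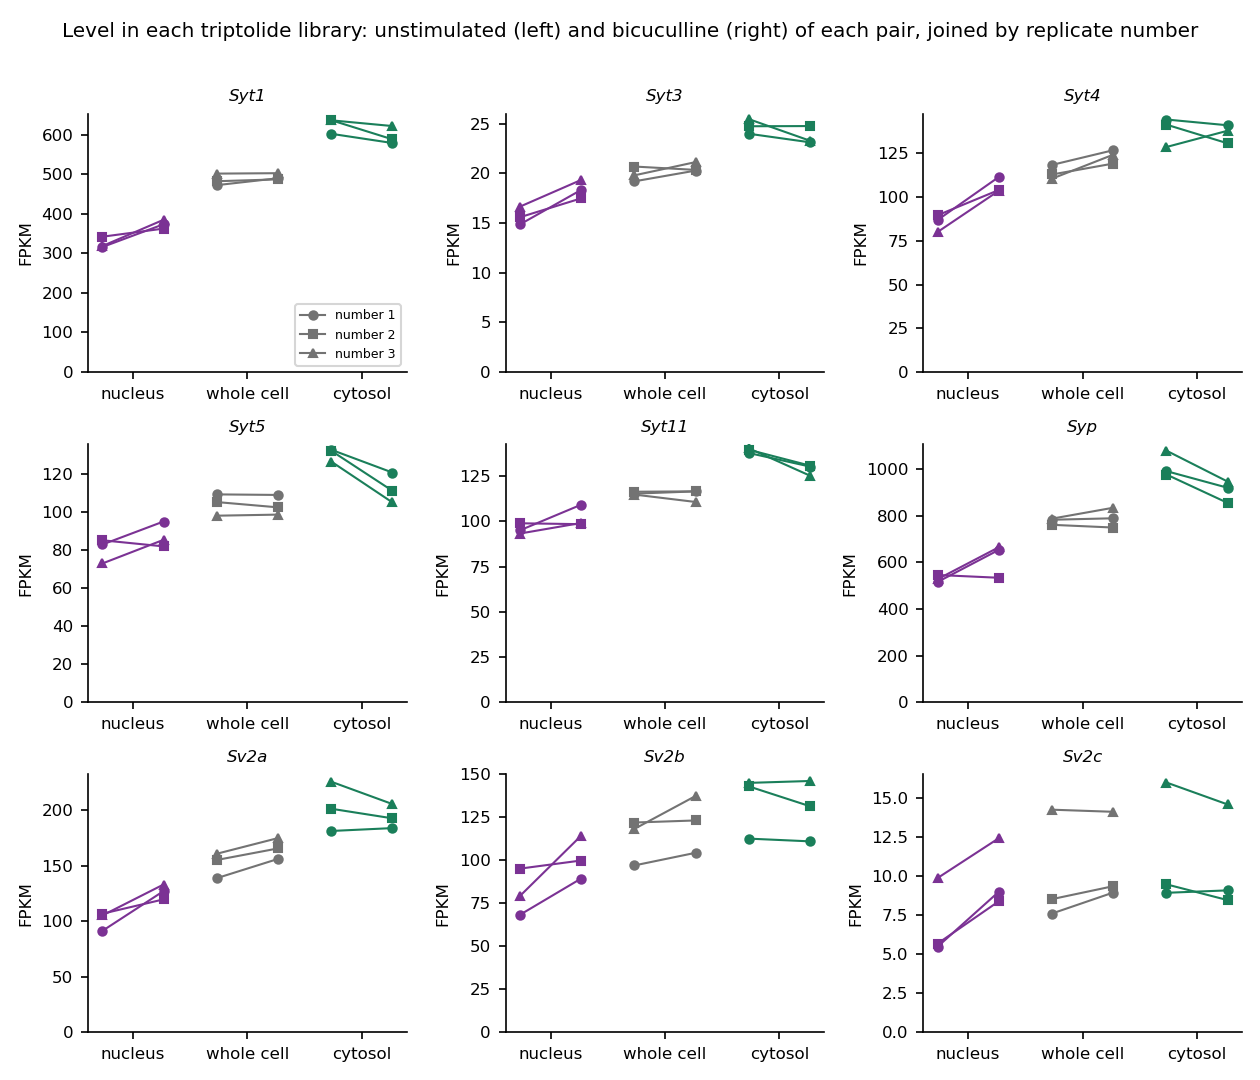
FPKM of 9 vesicle genes in each triptolide library, unstimulated (left) and after bicuculline (right) of each pair, joined by replicate number, for nucleus, whole cell and cytosol. Nuclear lines of Syt4 go up in all 3 numbers while its cytosolic lines do not share a direction, and the nuclear line of Syp in number 2 dips from 546 to 534 FPKM.

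Scaling and single libraries moved this count. Over all entries the median difference was -0.11, and -0.03 with median-ratio scaling, and among all entries 12 were called higher and 67 lower as deposited, against 107 and 46 with that scaling. With it, 6 members were higher and 0 lower without the block (0.753% of all entries were higher), and 12 were higher and 0 lower with the block (5.67%). Snap47, Syn1 and Synpr were added there, and Stxbp4 and Stx4a were not called (limma adjusted p = 0.0884 and 0.143). Without nuclear bicuculline library 2 the unblocked fit called 8, 4 higher and 4 lower, among them Syp (0.48, limma adjusted p = 0.00654). The share of all entries called in that refit is not given here either. The blocked fit gave 0 calls without number 1 and 0 without number 3, and 13 without number 2 (9 of the 11 among them). Shares of all entries called are not given for these fits. The nuclear long noncoding RNAs had a median difference of -0.30 (0 called), and their part in the result was not tested.

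**Figure D5:**
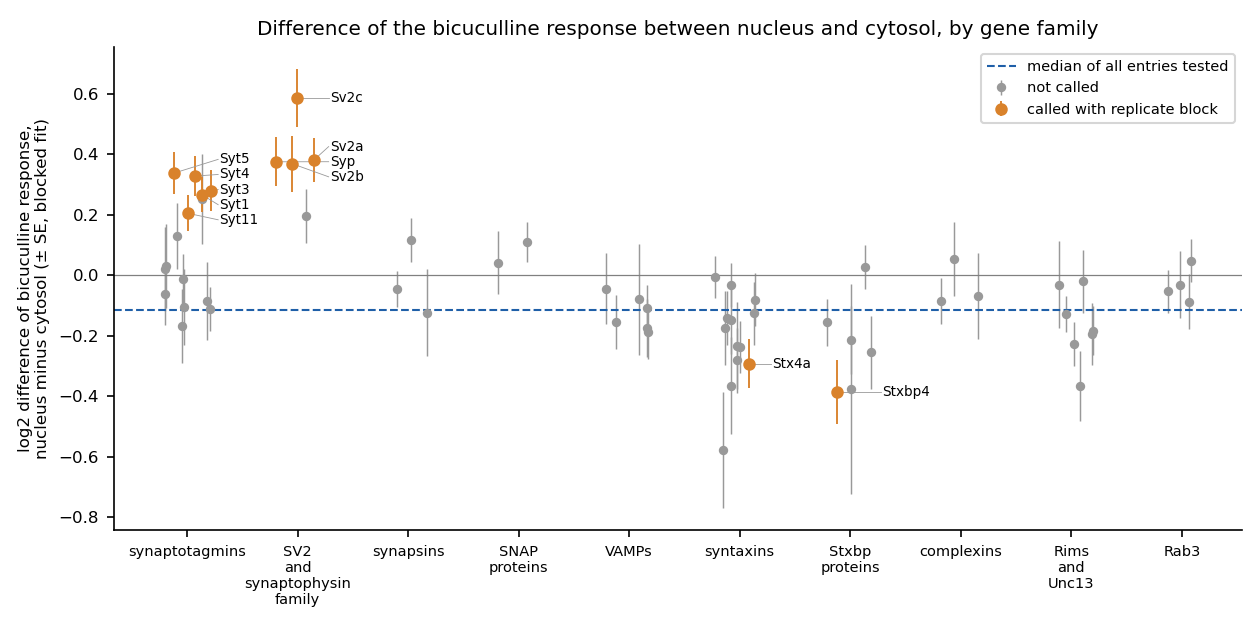
Log2 difference of the bicuculline response, nucleus minus cytosol (± SE, blocked fit), of each tested entry by family, with the median of all entries (-0.11) dashed. The 9 points called above 0 are synaptotagmins and SV2 or synaptophysin genes, from Syt11 at 0.21 to Sv2c at 0.59.

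Other genes of the release pathway, from lists outside the rule, were read in the same fits. Of 26 active zone and release factors, 0 passed the test in the 3 DRB comparisons and in whole cells, with or without the block. In nuclei of unstimulated cells 7 were higher and 7 lower than in cytosol (39.0% and 28.0% of all entries; median -0.13). The scaffold Bsn was higher (0.50) and the SNARE-dissolving ATPase Nsf lower (-0.73). After bicuculline in cytosol 2 rose (8 with the block, 1 with the block and median-ratio scaling), Rimbp2, which links Rims to calcium channels (0.47), and Apba2, an adaptor protein of the release site (0.22). Over all entries 3.27% were called in cytosol in either direction. With the block 14.5% of all entries rose there, and 3.37% with the block and median-ratio scaling. For the difference between fractions 0 of the list were higher and 1 lower (0 and 3 with the block). Over all entries 0.556% were called for it, and with the block 2.84% were higher and 6.92% lower.

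Of 35 genes of vesicle membrane, filling and recycling, 34 were tested (Sncg was not). Under DRB 0 were called in any comparison, and in whole cells 0 (1 rose with the block, where 4.23% of all entries were called). Of the 34, 26 were lower and 4 higher in unstimulated nuclei (28.0% and 39.0% of all entries; median -0.40). The vesicular GABA transporter Slc32a1 was at -1.46 and the synaptophysin relative Syngr3 at -0.87. In nuclei bicuculline gave 0 rises and 1 fall (9 and 1 with the block): the dynamin Dnm2 fell (-0.32), and the glutamate transporter Slc17a6 (0.30), the clathrin heavy chain Cltc (0.29) and Slc32a1 (0.26) rose with the block. Over all entries 0.986% rose and 0.824% fell in nuclei, and 7.72% and 5.39% with the block. In cytosol 3 of the list rose and 0 fell (9 and 3 with the block, 3 and 4 with the block and median-ratio scaling). Over all entries 3.27% were called in cytosol in either direction. With the block 14.5% rose and 0.795% fell, and with the block and median-ratio scaling 3.37% and 4.19%. For the difference between fractions 0 were called without the block (0.556% of all entries). With it 5 were higher and 3 lower (2.84% and 6.92% of all entries). The 5 included the synaptophysin relatives Syngr3 (0.26) and Syngr1 (0.21) and the vesicle protein Scamp5 (0.27). The genes named from both lists were picked with their values known. Slc17a6 and Slc32a1 are also on the neuron marker lists above, so their rises there and here are the same values.

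Gene structure was compared with these values as a description. Matched to GENCODE M21, 63 members had a median gene length of 47351 bp and 7 introns, against 27448 bp and 8 introns over 11155 protein-coding entries. Across the members the nucleus to cytosol difference had a Spearman rho of 0.265 with the number of introns and 0.071 with gene length, against 0.263 and 0.115 over all protein-coding entries. For the difference of the bicuculline response the rho was -0.237 with introns, against -0.136. Genes are not independent replicates, and these genes share their libraries.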

How the data were processed

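Per the labels' protocols, total RNA (Trizol, RNeasy columns) was made into libraries with the TruSeq Stranded mRNA kit, from 200 ng. The values are FPKM that the authors deposited on FASTDB gene models (mm10), with STAR 2.4.0, SAMtools, Picard and FastQC named in the submitters' processing notes. How fragments were counted (program, strand, multiple mapping) is not given in the sources used here.

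No rescaling was applied before taking log2(FPKM + 0.5). Entries with at least 1 FPKM in at least 3 libraries of an experiment were tested, 13321 under DRB and 14205 under triptolide, each experiment fitted apart on the whole table. Group means were fitted with limma 3.58.1 in R 4.3.3, with moderated variance (trend and robust), in 9 comparisons, two-sided, with Benjamini-Hochberg adjustment over all entries tested and calls at an adjusted p under 0.05. Alternatives were a pseudocount of 0.1 or 1, no filter, median-ratio scaling, quantile normalization and replicate number as a block. Each library was also left out, for the comparisons that involve its group. Replicate numbers pair the libraries: deviations from the group means correlated at 0.463 to 0.902 in 9 same-number pairs under DRB and 0.256 to 0.692 in 45 under triptolide, and at most at 0.154 and -0.071 in pairs of different numbers. Each replicate number goes with a single culture-like number in the sample descriptions. For replicates 1, 2 and 3 these are 7, 8 and 10 under DRB, and 1, 2 and 4 under triptolide. Depth was estimated from the steps between low values of 2171 single-exon genes. The script was tested on simulated data. Other tools were matplotlib 3.10.9, numpy 2.4.6, pandas 2.3.3 and Python 3.11.15, with GENCODE M21 for gene structure and RefSeq for promoters.

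Some members count in the totals and are not reported here by name. The members and lists were chosen with earlier results of these data known. Named members are a set list of well-known release genes and, in each comparison, the 6 largest rises and 6 largest falls among called members (all where 12 or fewer are called).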

Additional observations from a re-analysis of the deposited data

Results flagged for a closer look

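The bicuculline response differed between nucleus and cytosol, by the test of the difference itself with replicate number as a block, for 11 members. Each had the same direction in 3 of 3 replicate numbers, which the blocked call itself favours. Over all entries 2.84% were higher and 6.92% lower in this fit. Vesicle membrane genes had higher nuclear responses, with log2 differences of 0.59 for Sv2c, 0.38 for Sv2a, 0.38 for Syp and 0.37 for Sv2b. So did the synaptotagmins Syt5 (0.34), Syt4 (0.33), Syt3 (0.28), Syt1 (0.27) and Syt11 (0.21). Stxbp4 (-0.39) and Stx4a (-0.29) had lower nuclear responses. None of the 11 passed the limma threshold without the block (adjusted p of 0.0855 to 0.519). The blocked fit called 0 members without number 1 and 0 without number 3, with the share of all entries not given for those refits.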

How the results depend on the processing

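Counts of called members are given here for limma. Shares of all entries called are not given for fits with a library or a number left out. In nuclei bicuculline gave 2 calls, and 1 with median-ratio scaling, 5 with quantile normalization, 13 with replicate number as a block and 14 with the block and median-ratio scaling; the blocked fit gave 1, 13 and 5 without numbers 1, 2 and 3. In cytosol 0 became 8 with the block, 5 with the block and median-ratio scaling, and 0, 3 and 1 with the block without numbers 1, 2 and 3. For the difference between nucleus and cytosol 0 became 6 with median-ratio scaling, 11 with the block, 12 with both, and 13 with the block without number 2. The block and its combinations with scaling or a left-out number changed no other count by over 1.5 times, and the latter 2 were chosen after seeing the data. Leaving out 1 library of the groups compared gave 0 to 9 calls for the nuclear response (9 without bicuculline nuclear library 2). For the difference it gave 0 to 8. For nucleus against cytosol it gave 42 to 45 in unstimulated and 38 to 44 in bicuculline cells, and elsewhere 0 to 0. With quantile normalization Rims2 (-0.053) in unstimulated cells and Rab3c (0.015) after bicuculline changed sign between nucleus and cytosol. Of 86 values of named members, 86 kept direction and side of the threshold with either pseudocount, 84 without the filter, 77 with median-ratio scaling, 74 with quantile normalization and 53 with the block, where the other 33 passed it. These 86 values are of members called without or with the block, so the 33 had to pass with it. The cause of the shifts between settings was not tested. Members without at least 1 FPKM in at least 3 libraries of an experiment were not tested there. Vamp5, Unc13c and the like are known here by level alone.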
